A study of Homo sapiens with 40 samples.

Results

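The genes described here encode the proteins of the cytosolic ribosome. They were chosen by symbol: protein-coding genes named RPL or RPS followed by a number, with or without one of the endings A, X, L, AL or L1, together with RPLP0, RPLP1, RPLP2 and RPSA. This rule takes 85 of the 60279 genes listed in the count tables, 53 of the large subunit and 32 of the small subunit, and all 85 were present in every table. Among them, 8 are paralogs, second copies of another member's gene: RPL3L, RPL7L1, RPL10L, RPL22L1, RPL26L1, RPL36AL, RPL39L and RPS27L.

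The cells were T47D, a human luminal breast cancer cell line, at passage 10. They were sorted one by one as live cells stained for EpCAM and CD49f. The number of cultures is not given in the sources used here. Single cells were processed with 1 of 3 protocols that copy whole polyadenylated transcripts: 13 cells with G&T, 13 with the Takara SMART-seq HT kit and 14 with the NEB NEBNext single-cell kit. G&T pulls mRNA from the lysate on oligo-d(T) beads before reverse transcription, Takara joins reverse transcription and cDNA amplification in 1 step, and NEB used more amplification cycles than the others and its own library chemistry. As a plate and a run held cells of 1 protocol only, protocol, plate and run cannot be told apart. Cells of 1 line that share a plate and a run stand for a single sample per protocol, and no test between protocols was made. Values below are for the 11 cells of each protocol that passed the study's 4 quality thresholds, and an SD or range is the spread between those cells.

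A ribosome is built from a large and a small subunit, each holding ribosomal RNA and many small proteins made in matched amounts. The small subunit reads the mRNA and the large subunit joins the amino acids, while RPLP0, RPLP1 and RPLP2 form the stalk that recruits translation factors. Their mRNAs are short, abundant in growing cells and belong to the TOP mRNAs, which begin with a C followed by an unbroken run of pyrimidines (C or T) and are held back from translation together when mTOR signalling is low. Most of these genes also have processed pseudogenes scattered over the genome, so a short read from one of them can match several places.

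Most members with an annotated start on hand had a run of pyrimidines near it. Of the 85 members, 68 had an entry in the RefSeq promoter table (GRCh38.p14). Among these 68, 53 (77.9%) had an unbroken run of at least 7 C or T bases reaching within 10 bases of the annotated start. Of all 27305 promoters searched, 20.9% had such a run. Only the first entry per gene symbol was searched, for members and all promoters alike, so other starts of a gene were left out. The same search on the other strand, for runs of A or G, found 3 members (4.41%) against 18.4% of all promoters. The first transcribed base was C in 48 members (70.6%) and in 15.0% of all promoters. The search is looser than the TOP definition, since the run may lie before the start. Windows of 25 bases before and 15 bases from the annotated start are shown for RPLP0 and for the members with an entry that were among the 3 highest or lowest in a ratio between protocols. The longest C or T run near the start is in capitals, as far as the window holds it. That of RPL39 has 22 bases and goes on past the end of its window.
RPLP0 (chr12:120201097-120201136, minus strand): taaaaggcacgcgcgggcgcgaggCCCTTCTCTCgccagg
RPLP2 (chr11:809942-809981, plus strand): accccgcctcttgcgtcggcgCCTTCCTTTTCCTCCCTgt
RPL36AL (chr14:49620612-49620651, minus strand): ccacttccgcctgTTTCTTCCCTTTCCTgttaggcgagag
RPL39 (chrX:119791616-119791655, minus strand): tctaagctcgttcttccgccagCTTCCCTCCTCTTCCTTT
RPL6 (chr12:112411428-112411467, minus strand): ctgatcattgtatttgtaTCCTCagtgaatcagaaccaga
RPL7L1 (chr6:42879591-42879630, plus strand): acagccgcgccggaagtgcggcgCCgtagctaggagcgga
RPS3 (chr11:75399493-75399532, plus strand): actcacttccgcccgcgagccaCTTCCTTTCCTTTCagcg
RPS12 (chr6:132814544-132814583, plus strand): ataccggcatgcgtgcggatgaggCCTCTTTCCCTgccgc
RPS27 (chr1:153990737-153990776, plus strand): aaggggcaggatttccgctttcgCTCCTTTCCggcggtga
RPS28 (chr19:8321471-8321510, plus strand): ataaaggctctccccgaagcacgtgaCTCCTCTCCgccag
RPS29 (chr14:49598696-49598735, minus strand): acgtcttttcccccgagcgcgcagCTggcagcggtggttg
At the starts shown, the runs of RPL6, RPL7L1 and RPS29 were under 7 bases. The median log2 ratio of G&T over Takara, described further on, was 1.26 over the 50 tested members with such a run and 1.22 over the 14 without, and that of G&T over NEB was 2.17 and 1.68.

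Reads on the members took a larger share of the G&T libraries than of the others. Per cell they were 10.3% ± 3.44 (SD, n = 11) of the reads on genes in G&T, 5.09% ± 0.840 for Takara cells and 3.77% ± 0.797 for NEB cells. G&T cells lay between 7.01% and 16.5% with a median of 9.59%, Takara cells between 3.84% and 6.85% with a median of 5.19%, and NEB cells between 2.92% and 5.15% with a median of 3.34%. Every G&T cell was above every Takara and every NEB cell, whereas the Takara and NEB cells overlapped. Pooled over cells, the members held 10.8% of 9500268 reads in G&T (exact 95% binomial interval 10.77 to 10.81, counting error only), 5.05% of 11716685 for Takara and 3.74% of 7973692 for NEB. A kept cell held 658154 to 1166633 reads on genes with G&T, 818512 to 1287911 with Takara and 624772 to 963816 with NEB, and members alone had 18268 reads in the lowest cell of any protocol.

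Set against the ERCC spike-ins, synthetic RNAs added to each lysate in the same amount, the order was another. Member reads per ERCC read were 5.44 ± 1.02 (SD, n = 11 cells) with G&T, 5.46 ± 1.19 with Takara and 0.312 ± 0.111 with NEB. G&T cells ranged from 3.36 to 6.85 and Takara cells from 4.10 to 7.43, so these 2 protocols overlapped almost fully, while every NEB cell was below them, at 0.168 to 0.543. All genes together gave 55.8 ± 13.5 reads per ERCC read with G&T, 111 ± 35.1 with Takara and 8.58 ± 3.61 with NEB. Thus the G&T share of members was 2.03 times the Takara share while member reads per ERCC read had a ratio of 0.998, and the reads of all genes per ERCC read were lower in G&T. ERCC capture and cell RNA capture were not measured apart here.

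**Figure D1:**
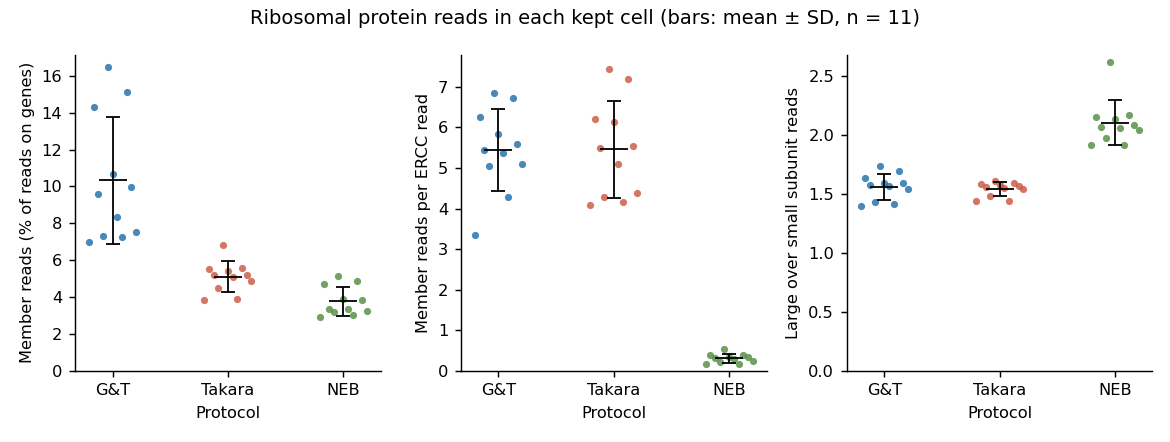
Member reads as a percentage of reads on genes (left), member reads per ERCC read (middle) and reads on large-subunit over small-subunit members (right), 1 point per kept cell with mean ± SD, n = 11 cells per protocol. The 11 G&T cells sit above all others on the left, G&T and Takara overlap in the middle, and the NEB cells sit at 1.91 or higher on the right.

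Nearly all members were read in every cell. A G&T cell had reads on 82.5 ± 0.820 members (SD, n = 11), a Takara cell on 82.9 ± 0.539 and an NEB cell on 80.8 ± 0.982. Reads in all 11 cells were found for 81 members with G&T, 81 with Takara and 76 with NEB. Over all genes with a read in the protocol the same held for 24.9% with G&T, 36.7% with Takara and 11.1% with NEB, against 96.4%, 96.4% and 92.7% of the members with a read. Thinned to the reads of the smallest kept cell, G&T kept 82.4 members, Takara 82.7 and NEB 80.8. Among the 100 genes with the most pooled reads, 46 were members with G&T, 14 with Takara and 6 with NEB.

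The members without reads were paralogs or genes that share exons with another gene. RPL10L, the autosomal retrocopy of X-linked RPL10 known from testis, had no read in any kept cell, where 0 reads allow up to 0.316 CPM (counts scaled to the same total of reads on genes, 1000000, in each library) with G&T, 0.256 with Takara and 0.376 with NEB. RPL3L, the heart and skeletal muscle form of RPL3, had 1 read in 1 G&T cell, 12 reads in 4 Takara cells and none in NEB. RPL36A had 24 reads in 7 G&T cells, 59 reads in 7 Takara cells and none with NEB, so its pooled level was at least 13.4-fold higher with Takara and at least 6.71-fold higher with G&T than the limit of 3 reads in NEB. Some members have at least 40% of the canonical transcript within exons of another listed gene of the same strand, among them RPL17 (96.9%), RPS10 (84.0%), RPL26 (65.3%) and RPL36A (43.8%). STAR does not assign a read that falls on both. RPL17 had 87, 48 and 62 reads in G&T, Takara and NEB, and RPS10 had 41, 52 and 73. Levels of these genes are therefore uncertain, and RPL10L, RPL3L, RPL17, RPS10 and RPL36A stayed below 10 CPM in every protocol and were left out of the ratios.

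Ratios between protocols were taken from reads pooled over the kept cells, as log2 of CPM + 1, for genes with at least 10 CPM in either protocol of a pair. G&T over Takara had a median log2 ratio of 1.22 over the 80 members tested, and -0.09 over the 9060 genes tested. At least 2-fold higher in G&T were 50 of the 80 members, beside 19% of all genes, and 1 member, RPL39L, was at least 2-fold higher in Takara, beside 20.4%. In 30 members every G&T cell was above every Takara cell, beside 1.06% of all genes, and in 1 member, RPS3, every Takara cell was above every G&T cell, beside 2.04%. With mitochondrial genes left out of CPM, RPS3 no longer separated. Large-subunit members had a median of 1.15 and small-subunit members one of 1.23.

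Other short transcripts were shifted less in both pairs with G&T, and about as much between Takara and NEB. Of the protein-coding genes tested between G&T and Takara, 473 that are no members had a canonical transcript under 1000 bases and a median log2 ratio of 0.06, while the 44 members this short had a median of 1.28. For G&T over NEB the other short genes had 0.97 and the short members 2.05, and for Takara over NEB they had 0.73 and 0.77.

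The comparison of G&T with NEB gave the widest gap. The members had a median log2 ratio of 2.09 against 0.38 over 9119 genes. At least 2-fold higher in G&T were 63 members, beside 39.6% of all genes, and 2 members, RPL7 and RPL36AL, were at least 2-fold higher in NEB, beside 23%. Every G&T cell was above every NEB cell in 46 members, beside 5.15% of all genes, and the reverse held for 0 members, beside 1.67%. When the log2 values were averaged over cells instead of pooling reads, the median over all genes was 1.87 and the members' median lay 0.03 above it. By that average 63.9% of all genes were at least 2-fold higher in G&T.

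Between Takara and NEB the members lay nearer to the other genes than in the other pairs. Their median log2 ratio was 0.77 against 0.38 over 8955 genes, and 33 members were at least 2-fold higher in Takara (41.2% of those tested), beside 40.3% of all genes. At least 2-fold higher in NEB were 7 members, RPL6, RPL7, RPL7L1, RPL26L1, RPL34, RPL36AL and RPS20 (8.75%), beside 25.6%. Every Takara cell was above every NEB cell in 24 members (30%), beside 12.1%, and every NEB cell above every Takara cell in 2, RPL7 and RPL36AL, beside 2.43%. With log2 values averaged over cells the members' median was 1.09 below that of all genes.

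**Figure D2:**
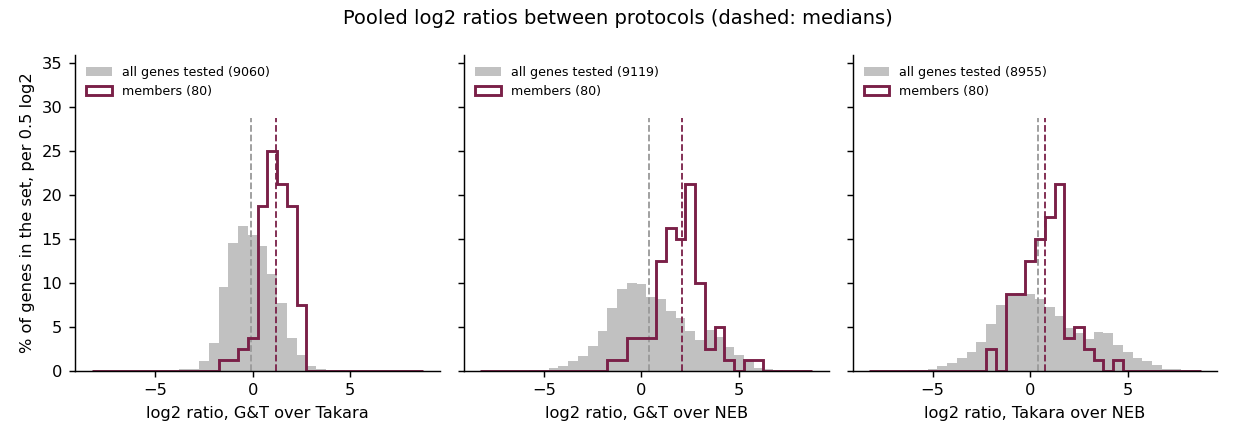
Distribution of pooled log2 ratios of CPM + 1 for G&T over Takara, G&T over NEB and Takara over NEB, as the percentage of genes per 0.5 log2 units, for all genes tested (grey) and the 80 members tested (outline), with dashed lines at the medians. The members are shifted towards G&T in the first pair of panels, with medians of 1.22 and 2.09, and overlap the other genes between Takara and NEB, at 0.77 against 0.38.

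RPL7 and RPL36AL were the members that stood highest in NEB against the other protocols. RPL7, a protein of the large subunit, had 5751 CPM pooled with NEB, 2061 with G&T and 1330 with Takara. NEB cells ran from 3390 to 10851 CPM with a median of 5234, G&T cells from 725 to 3480 with a median of 2087, and Takara cells from 933 to 2054 with a median of 1363. All NEB cells were above all Takara cells, and the lowest NEB cell was just under the highest G&T cell. The log2 ratio was -1.48 for G&T over NEB and, against Takara, the gap was wider, at -2.11.

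RPL36AL, an autosomal retrocopy of RPL36A whose product is nearly the same protein, had 1815 CPM with NEB, 830 with G&T and 467 with Takara. Its NEB cells ran from 1122 to 2684 CPM with a median of 1865, its Takara cells from 335 to 616 with a median of 454, and its G&T cells from 290 to 2258 with a median of 513. No NEB cell reached down to the Takara range, while the G&T range crossed that of NEB. RPL36AL and RPL36A agree at 286 of 318 coding bases, and reads that match both equally well are not counted for either. RPL7 alone took 15.4% of all member reads with NEB, against 1.91% with G&T and 2.63% with Takara.

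Large-subunit reads outweighed small-subunit reads most in NEB, where these 2 genes took many of them. Reads on large-subunit over small-subunit members came to 1.56 ± 0.110 (SD, n = 11 cells) with G&T, 1.54 ± 0.0607 with Takara and 2.10 ± 0.193 with NEB. NEB cells lay between 1.91 and 2.62, above the G&T cells at 1.40 to 1.74 and the Takara cells at 1.43 to 1.61. Without RPL7 and RPL36AL, which held 19.9% ± 3.26 of member reads in NEB, the ratio was 1.49 ± 0.103 with G&T, 1.45 ± 0.0566 with Takara and 1.49 ± 0.226 with NEB, and the 3 ranges overlapped. Without them the means lay closer together than the cells of any 1 protocol. Both are large-subunit members picked as high in NEB after seeing the data, so leaving them out had to lower the NEB ratio.

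At the other end stood members of both subunits that NEB barely read. RPS28, a small-subunit protein near the mRNA exit, had 772 CPM pooled with G&T, 300 with Takara and 12.9 with NEB (95% Poisson interval of 103 reads, 10.5 to 15.7, counting error only). Its G&T cells ran from 290 to 1657 CPM with a median of 575, its Takara cells from 170 to 404 with a median of 302, and its NEB cells from 0 to 22.4 with a median of 15.1. No cell of G&T or Takara came near the NEB range. The log2 ratio over NEB was 5.80 with G&T and 4.44 with Takara, the highest among members in both. KANK3, on the other strand, overlaps 27.4% of the canonical RPS28 transcript, and the strand setting of the counts is not given in the sources used here.

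RPS12, which lies in the head of the small subunit, had 1705 CPM with G&T, 345 with Takara and 42.3 with NEB. G&T cells spanned 866 to 3107 CPM with a median of 1633, Takara cells 213 to 511 with a median of 347, and NEB cells 0 to 154 with a median of 27.7. The 3 protocols did not overlap. RPLP2, an acidic stalk protein, had 1154 CPM with G&T, 247 with Takara and 44.02 with NEB, with cells at 501 to 2463, 159 to 342 and 7.60 to 89.9. Its 3 ranges were separate as well. RPLP0, the stalk protein often used as a reference gene, had the most reads of any member in G&T and Takara and differed less, at 5040, 2947 and 1871 CPM, with cells at 2928 to 7379, 2226 to 4778 and 1266 to 2525. Its ranges overlapped between G&T and Takara and between Takara and NEB.

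After RPS28, RPS2 and RPL8 stood highest in Takara over NEB. RPL8, the large-subunit protein beside the peptidyl transferase centre, had 2888 CPM with Takara, 1880 with G&T and 352 with NEB. Takara cells lay at 2188 to 4068 CPM with a median of 2902, G&T cells at 1113 to 2620 with a median of 1758, and NEB cells at 140 to 975 with a median of 316. NEB was below both, and Takara and G&T overlapped. RPS2, at the mRNA entry of the small subunit, had 1779 CPM with Takara, 1403 with G&T and 140 with NEB, with cells at 1393 to 3101, 1037 to 2144 and 78.1 to 237. RPS3, another entry protein that also takes part in DNA repair, was higher in Takara than G&T, with 2045 against 1132 CPM and cells at 1633 to 2547 against 689 to 1562.

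RPL6 was the third highest member in NEB over Takara. This large-subunit protein had 970 CPM with NEB, 422 with Takara and 1769 with G&T, and its NEB cells at 451 to 1658 CPM overlapped the Takara cells at 319 to 594. RPL7L1, which acts in the making of the large subunit, had 350 CPM with NEB, 223 with G&T and 168 with Takara, with cells at 220 to 701, 115 to 324 and 113 to 236, so each pair of ranges overlapped.

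The members highest in G&T over Takara encode some of the shortest proteins of the ribosome. RPS29, a zinc-binding small-subunit protein, had 1949 CPM with G&T, 347 with Takara and 106 with NEB, a log2 ratio of 2.49 for G&T over Takara. Its G&T cells ran from 651 to 4081 CPM with a median of 1206, its Takara cells from 242 to 520 with a median of 341 and its NEB cells from 59.2 to 208 with a median of 83.2. All 3 ranges were separate. RPS27, another zinc-binding protein, had 2332 CPM in G&T and 462 in Takara, with cells at 818 to 5436 and 262 to 652, and 517 in NEB, with cells at 301 to 977. The G&T range was apart from that of Takara and crossed that of NEB. Across the 80 members, the Spearman correlation of the G&T over Takara ratio with coding length was -0.43, against 0.27 over the 8719 genes with a coding length, as a description over genes that share 2 pools of cells.

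**Figure D3:**
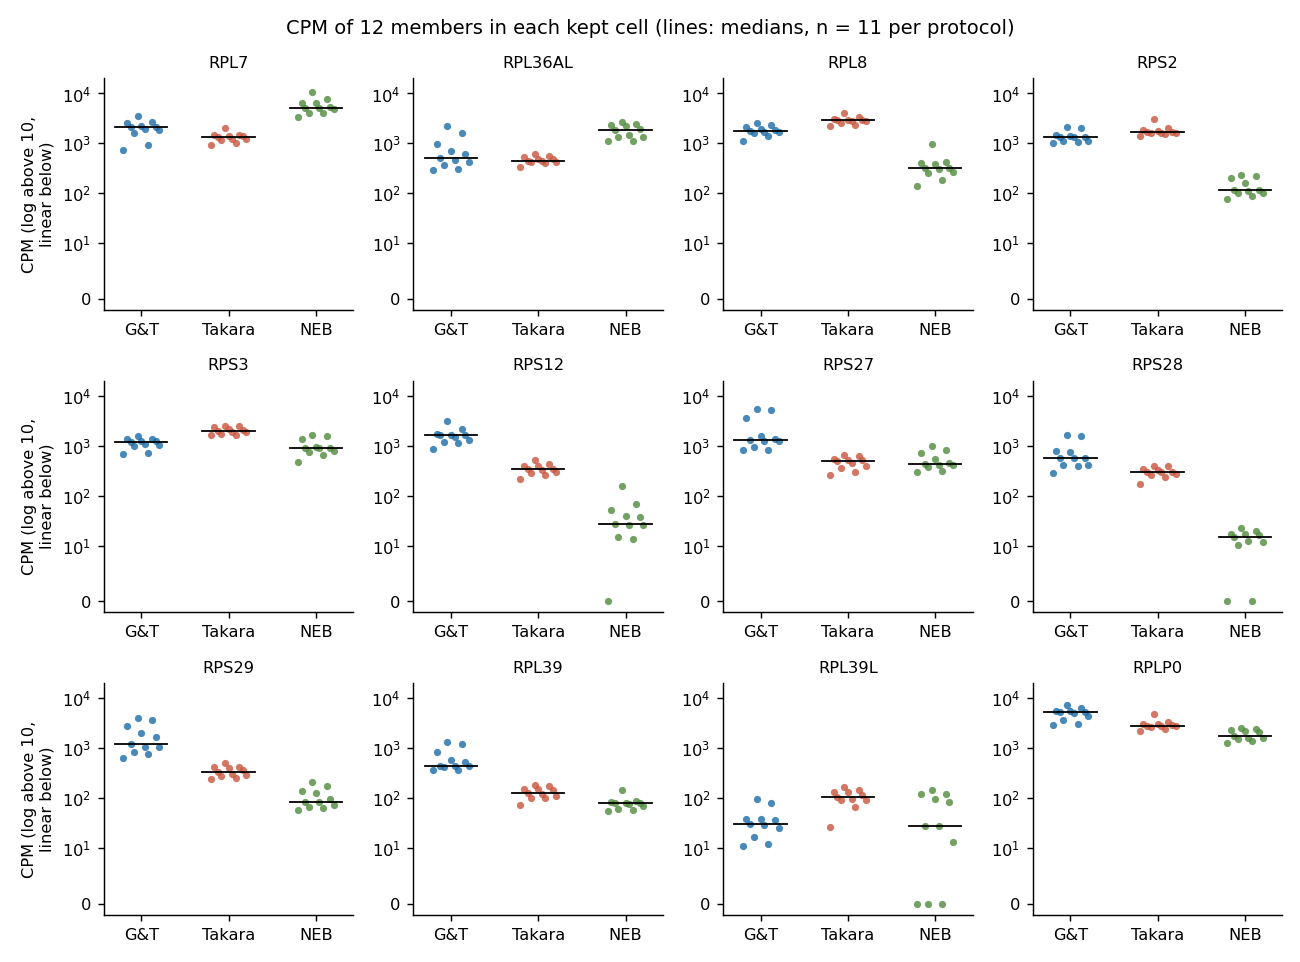
CPM of 12 members in each of the 33 kept cells, on an axis that is logarithmic above 10 CPM and linear below, with lines at the medians (n = 11 cells per protocol). RPL7 and RPL36AL are highest in NEB, RPS2, RPS12, RPS28 and RPL8 are lowest there, and RPS27 and RPS29 have a few G&T cells far above the rest.

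The GC content of a member's transcript went along with its ratio to NEB. Over the 80 members, the Spearman correlation of GC with the log2 ratio was 0.54 for Takara over NEB and 0.38 for G&T over NEB, and -0.25 for G&T over Takara. All genes gave 0.66, 0.63 and -0.18, values of the same signs as for the members. Split by GC into 3 groups, the 27 members at 39.9% to 45.2% GC had a median Takara over NEB log2 ratio of 0.27, the 26 in the middle 0.71 and the 27 at 51.0% to 63.6% GC 1.52. Of the 27 members highest in GC, 20 were at least 2-fold higher in Takara and 0 in NEB, and of the 27 lowest, 4 and 4. Among all genes in the same GC ranges, 75.4% were at least 2-fold higher in Takara and 6.48% in NEB at high GC, beside 74.1% and 0% of the members, and 16.3% and 35.6% at low GC, beside 14.8% and 14.8%. RPL7 with 40.3% and RPL36AL with 41.6% were near the low end and RPL8 with 63.6% was the highest, whereas RPS28 with 53.8% and RPS12 with 49.1% were not at an end. Length of the canonical transcript had correlations of -0.31, -0.12 and 0.027 with G&T over Takara, G&T over NEB and Takara over NEB, and all genes gave 0.36, -0.099 and -0.29. With the union of exons as the length, the first value for members was 0.041.

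**Figure D4:**
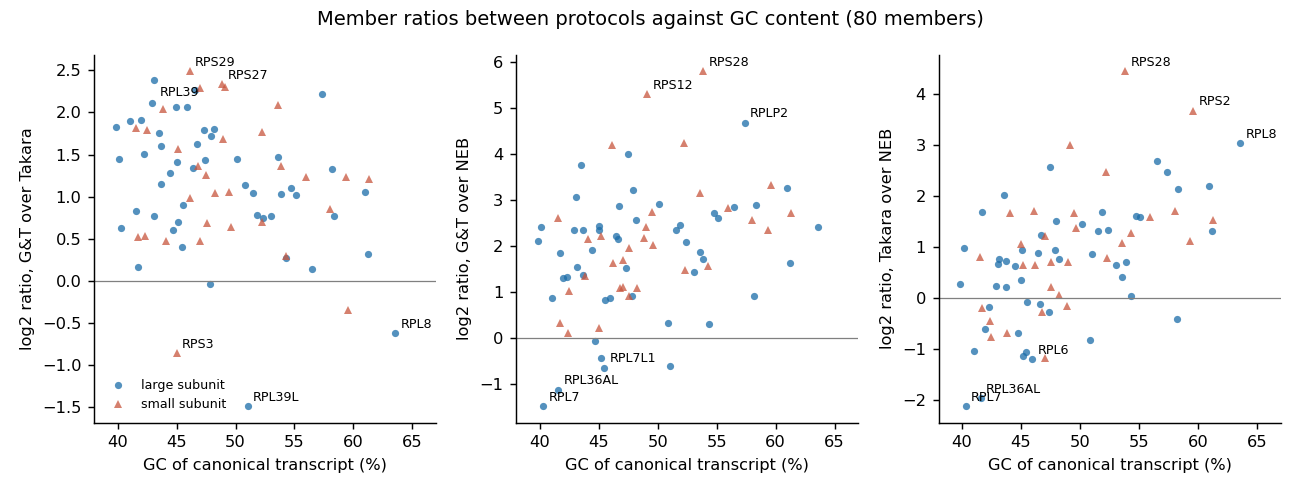
Pooled log2 ratio of the 80 tested members against the GC content of the canonical transcript, for large-subunit (circles) and small-subunit members (triangles), with the 3 highest and 3 lowest members of each panel named. RPL7 and RPL36AL lie at the lower left and RPL8 and RPS2 at the upper right of the Takara over NEB panel, whose Spearman correlation is 0.54.

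Levels of different members were compared per length, as reads per kilobase of the canonical transcript, scaled over all genes to the same total as CPM (TPM). The members highest in G&T were RPS27 (9491 TPM), RPS29 (9464), RPS18 (8965), RPS24 (7966) and RPS21 (7684). In Takara they were RPS18 (6247), RPL8 (4380), RPLP0 (4328), RPS2 (3056) and RPL35 (2653), and in NEB RPL7 (8677), RPL36AL (4994), RPS18 (4166), RPS24 (4039) and RPL35 (4038). RPS18, a protein of the small-subunit head, was thus among the 5 highest in each protocol. The lowest with a read were RPS10, RPL36A and RPL3L in G&T, RPL17, RPL36A and RPL3L in Takara, and RPL28, RPL22L1 and RPS28 in NEB.

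The canonical transcript makes this order uncertain, since 20 of the 85 are longer than 2000 bases and the longest has 7573, while coding lengths run from 75 to 1281 bases. Among the 5 highest with the canonical transcript, the union of exons and the coding length alike were RPS27 in G&T, RPS18, RPL8 and RPLP0 in Takara, and RPL7 and RPL36AL in NEB. Over the 77 members that are no paralogs, the 90th percentile of the level per coding length was 9.45 times the 10th in G&T and 7.74 times in Takara, and 16.2 times over the 76 with a read in NEB. The Spearman correlation of the level per length across the 85 members was 0.86 between G&T and Takara, 0.78 between Takara and NEB and 0.74 between G&T and NEB.

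The paralogs were mostly read less than the gene they derive from. RPL22L1, which can take the place of RPL22 in the ribosome, had a log2 level per length of -1.81 relative to RPL22 with G&T, -1.75 with Takara and -2.65 with NEB. It was read in 11 G&T, 10 Takara and 6 NEB cells, with 89.7, 24.6 and 20.2 CPM pooled. RPL7L1 stood at -5.08, -4.85 and -5.90 relative to RPL7, and at -3.25, -3.02 and -4.08 with the coding length in place of the transcript. RPL26L1 and RPL26 were level in G&T and Takara (-0.03 and -0.12) and RPL26L1 was the higher in NEB (0.34), but RPL26 is among the genes whose exons are shared, and with the union of exons as the length the first values were 1.51 and 1.42. RPL36AL was far above RPL36A, at 8.53 in G&T and 6.71 in Takara, and RPL36A is likewise one of those genes.

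RPL39L and RPL39 are the pair most alike in sequence, and among pairs read in all protocols their balance differed most. RPL39 lines the exit tunnel for the growing protein chain, and RPL39L is its autosomal copy, known from male germ cells and cancer cells. Their coding sequences, from GENCODE 44 on GRCh38, agree at 145 of 153 bases (94.8%), and the 8 bases that differ are in capitals. RPL39L lies at chr3:187120948-187180908 and RPL39 at chrX:119786504-119791630, both on the minus strand.
RPL39L: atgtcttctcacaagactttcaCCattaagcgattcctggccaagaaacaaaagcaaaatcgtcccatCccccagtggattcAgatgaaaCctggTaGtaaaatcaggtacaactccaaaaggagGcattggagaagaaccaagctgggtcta
RPL39: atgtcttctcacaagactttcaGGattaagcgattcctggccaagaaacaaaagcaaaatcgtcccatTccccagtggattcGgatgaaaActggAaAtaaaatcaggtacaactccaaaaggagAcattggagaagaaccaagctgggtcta

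RPL39L had 37.9 CPM pooled with G&T, 108 with Takara and 58.6 with NEB. Its G&T cells ran from 11.1 to 99.1 CPM with a median of 30.4, its Takara cells from 26.2 to 167 with a median of 105, and its NEB cells from 0 to 144 with a median of 27.7. The 3 ranges overlapped, and 8 of the 11 NEB cells had a read. RPL39 had 681 CPM with G&T, 130 with Takara and 81.0 with NEB, with G&T cells at 366 to 1348, Takara cells at 73.7 to 184 and NEB cells at 56.6 to 145. RPL39L thus held 5.27% of the reads of the pair with G&T, 45.4% with Takara and 42.0% with NEB. Per length of the canonical transcript its log2 level relative to RPL39 was -5.07, -1.17 and -1.37. With the union of exons as the length RPL39L was above RPL39 in Takara (0.78) and NEB (0.57), and below it in G&T (-3.13). Which reads of such a pair map to 1 place only depends on where in the transcript they fall, so these shares are uncertain.

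RPS27L and RPS27 differ more. RPS27L is a p53-responsive paralog, and the 2 coding sequences agree at 196 of 252 bases (77.8%), with differing bases in capitals. RPS27L lies at chr15:63125872-63158021 on the minus strand and RPS27 at chr1:153990762-153992155 on the plus strand.
RPS27L: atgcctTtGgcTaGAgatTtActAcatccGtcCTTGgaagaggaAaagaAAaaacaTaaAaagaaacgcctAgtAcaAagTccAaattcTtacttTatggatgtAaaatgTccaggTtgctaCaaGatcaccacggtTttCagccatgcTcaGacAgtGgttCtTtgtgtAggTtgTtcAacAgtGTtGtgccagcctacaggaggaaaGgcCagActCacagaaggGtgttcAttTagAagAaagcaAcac
RPS27: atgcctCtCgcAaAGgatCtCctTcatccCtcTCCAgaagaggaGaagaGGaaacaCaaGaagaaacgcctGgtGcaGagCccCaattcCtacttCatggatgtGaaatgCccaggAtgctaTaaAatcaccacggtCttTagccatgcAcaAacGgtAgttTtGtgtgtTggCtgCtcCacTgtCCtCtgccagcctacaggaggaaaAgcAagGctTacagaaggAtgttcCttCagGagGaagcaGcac
RPS27L had 151, 104 and 120 CPM in G&T, Takara and NEB, with cells at 60.8 to 393, 73.0 to 132 and 32.2 to 267. The 3 ranges overlapped, unlike those of RPS27 between G&T and Takara. RPS27L held 6.08% of the reads of the pair with G&T, 18.4% with Takara and 18.9% with NEB.

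Summed over all members, reads on pseudogenes named after them were few, but not for each gene. Of 1586 such pseudogenes, 468 had reads with G&T, 300 with Takara and 199 with NEB, amounting to 1.19%, 1.08% and 1.13% of the member reads. RPL17 had fewer reads than its named pseudogenes, 87 beside 303 in G&T, 48 beside 87 in Takara and 62 beside 194 in NEB. RPL36A had 24 beside 144 in G&T, 59 beside 27 in Takara and 0 beside 18 in NEB. Reads that map to more than 1 place were not counted on any gene, and made up 4.14% ± 0.533 (SD, n = 11 cells) of the reads with G&T, 3.74% ± 0.238 with Takara and 2.81% ± 0.206 with NEB.

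Other genes of translation stood differently from list to list. FAU, which encodes a ribosomal protein fused to a ubiquitin-like sequence and falls outside the symbol rule, had a log2 ratio of 1.04 for G&T over Takara, whereas RACK1, a scaffold on the small subunit, had -0.53. Among 5 elongation factor genes, 4 were tested and EEF2, the translocase, was the only one at least 2-fold higher in G&T than Takara (2.47), while 4 of 4 were higher in G&T than NEB. EEF1G was listed at 0 in all kept cells. Among 11 other TOP mRNAs the median log2 ratio was 0.16 (G&T over Takara), -0.13 (G&T over NEB) and -0.58 (Takara over NEB), and EIF4B, a TOP mRNA for a helicase cofactor, was at -3.10 for Takara over NEB. Among 25 genes of ribosome assembly the median was -0.49 for G&T over Takara, with 2 at least 2-fold higher in G&T, among them NCL (1.30), and 5 in Takara.

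Between cells of 1 protocol, the median member varied less than the median gene, by little in G&T and most in NEB. Members and genes were not matched for level beyond a minimum of 100 CPM, and the part of level in this was not tested. Among genes of at least 100 CPM, the median coefficient of variation (SD over mean of CPM across cells) was 42.5% over 76 members and 46.2% over 1705 genes in G&T, 21.6% over 75 members and 29.6% over 2071 genes in Takara, and 40.9% over 67 members and 65.6% over 1908 genes in NEB. Among the steadiest members were RPL8 (22.6%) and RPS3 (24.0%) in G&T, RPL4 (13.1%) and RPS15 (13.1%) in Takara, and RPS14 (19.2%) and RPLP0 (23.4%) in NEB. The most variable were RPL36 (95.6%), RPS27 (81.6%) and RPL36AL (80.2%) in G&T, RPL39L (37.0%), RPL32 (36.6%) and RPS9 (31.9%) in Takara, and RPL22 (82.9%), RPL8 (61.2%) and RPS4X (59.4%) in NEB. RPL4 reaches into the exit tunnel, RPS14 lies on the platform of the small subunit, and RPL22 binds RNA and also acts outside the ribosome. RPL8 was among the steadiest in G&T and the most variable in NEB, where its cells ran from 140 to 975 CPM. NEB cell A1 alone had 975 CPM, and the next highest NEB cell had 420.

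In G&T, 3 cells stood above the others in many members. The 3 cells with the highest member share had 14.3% or more, and the fourth had 10.7%. The same 3 cells were the 3 highest in 42 of the 76 members of at least 100 CPM (55.3%), beside 10.1% of all 1705 genes of that level. For the 3 Takara cells with the highest share this held in 9 of 75 members (12%), beside 1.26% of all genes. For the 3 such NEB cells it held in 13 of 67 (19.4%), beside 1.78%. Since the cells were picked by the sum of the members, these shares are a description only. In RPS27 the 3 highest G&T cells had 3646 to 5436 CPM and the other 8 had 818 to 1577. In RPL36, a large-subunit protein, they had 1365 to 3653 and the others 413 to 710. RPS3 had other cells at its top and no such gap, with 1380 CPM or more in its 3 highest and 1277 in the next. Cells E2 and H1, both among the 3 with the highest member share, were the lowest G&T cells in RPS3, at 689 and 711 CPM. They were also the lowest in RPLP0 (3122 and 2928), RPL3 (614 and 662) and RPL7 (950 and 725).

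Most members went along with the sum of the others from cell to cell, least closely in NEB. The Spearman correlation of a member with the summed CPM of the other members, over 11 cells, had a median of 0.82 with G&T, 0.69 with Takara and 0.48 with NEB, and was positive for 72 of 76, 74 of 75 and 58 of 67 members. Genes of at least 100 CPM that are no members had a median of -0.17, 0.045 and -0.027 with the sum of the members. Between pairs of members the mean correlation was 0.49, 0.47 and 0.21, and 83.9%, 95.2% and 72.4% of the pairs were positive. RPL34 (0.97) was the closest in G&T and RPS2 (-0.34) the farthest. In Takara the ends were RPL12 (0.95) and RPL39L (-0.16), and in NEB RPS18 (0.95) and RPL26L1 (-0.58). All points share the denominator of their cell.

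The member share was lower in cells with more reads on genes of the G2 and M phases. In G&T, the Spearman correlation of the share with the summed CPM of 10 such genes (MKI67, TOP2A, CCNB1, CDK1, AURKA, PLK1, BUB1, CENPF, TPX2 and UBE2C) was -0.94 over 11 cells, with a Pearson r of -0.89 on the log2 scale and -0.85 without the 2 cells farthest from the median. Leaving out each cell in turn, the Spearman correlation stayed between -0.96 and -0.92. The 3 cells with the highest share had 360 to 896 CPM on these genes, and the cell with the lowest share, 7.01%, had 11106. In G&T, 72 of 76 members had a negative correlation with them, beside 44.1% of all genes of that level.

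In Takara and NEB the correlation was -0.45 in each, and -0.30 and -0.27 at the weakest without 1 cell. There, 68 of 75 and 52 of 67 members were negative, beside 53.5% and 53.6% of all genes of that level. Shares add up to a whole within a cell, so more reads on some genes leave fewer for others. Per ERCC read, the correlation with the same genes was -0.69 with G&T, 0.52 with Takara and -0.25 with NEB. In G&T the share also went along with library size (0.77), reads on several places (0.72), the ERCC percentage (0.70) and reads outside genes (-0.67), and not with mitochondrial reads (0.0091). The part of these in the relation was not tested.

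**Figure D5:**
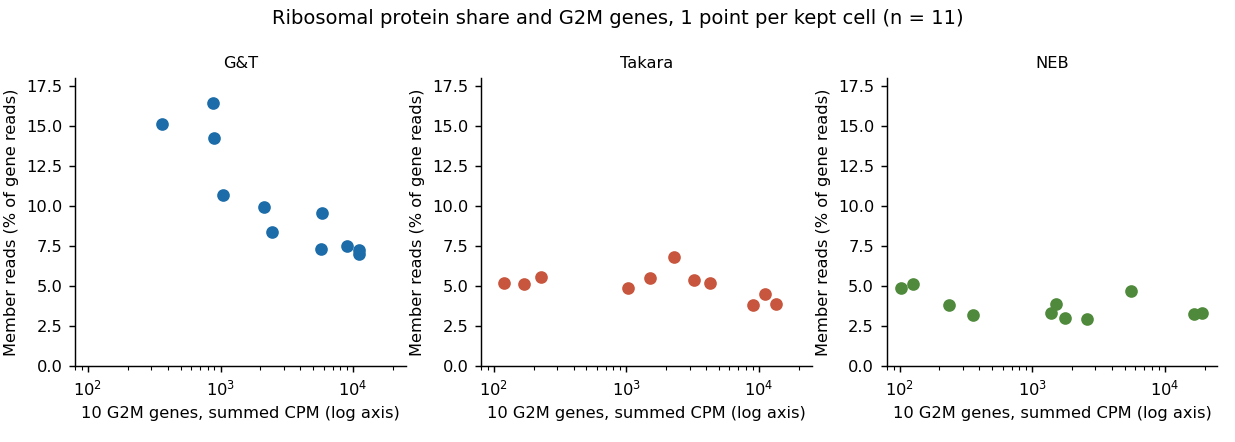
Member reads as a percentage of reads on genes against the summed CPM of 10 G2 and M phase genes on a log axis, 1 point per kept cell, n = 11 cells per protocol. In G&T the share is 14.3% to 16.5% in 3 cells with 896 CPM or less on these genes and 7.01% in a cell with 11106, while Takara and NEB cells stay between 2.92% and 6.85%.

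The labelled cell type was checked against markers. EPCAM, KRT8, KRT18, KRT19, ESR1 and GATA3 of luminal epithelium had reads in all 11 cells of each protocol, except EPCAM in 10 NEB cells, and ITGA6 (CD49f) in 11 G&T, 10 Takara and 5 NEB cells. PTPRC of immune cells and PECAM1 of endothelium had 2 and 12 reads in G&T and none in Takara and NEB. VIM and COL1A1 of mesenchymal cells stayed at or under 18.1 CPM in each protocol. COL1A1 was nevertheless read in 11 G&T, 10 Takara and 9 NEB cells, and VIM in 2, 4 and 3. In Takara, COL1A1 had 12.6 CPM and ITGA6 11.4, while in G&T and NEB ITGA6 was the higher. COL1A1 was thus not absent, and its level did not set it apart from ITGA6 in Takara.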

How the data were processed

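Single T47D cells were sequenced, and the authors trimmed the reads with Trim Galore 0.4.0, aligned them to GRCh38 with STAR 2.5.2b and merged its gene counts into 1 table per protocol. The deposited values are raw read counts, with no molecular identifiers, normalization or filter. The annotation and strand setting behind them are not given in the sources used here. Besides the 60279 genes, a table holds 92 spike-ins and 4 totals of reads that STAR put on no gene.

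Cells were kept with at least 1000 genes, 600000 reads on genes and spike-ins, at most 30% mitochondrial and at most 25% ERCC reads, which left 11 per protocol of the 40. Lengths, GC content and overlaps came from GENCODE 44, whose release may differ from that of the counts. Ratios used pooled CPM + 1, a minimum of 10 CPM and 2-fold as the limit. Where no read was found, 3 reads served as the upper limit. Intervals are 95% and cover counting error only, since reads are not separate molecules.

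No test was made, as each protocol is 1 sample. The members and gene lists were chosen with earlier results of these data known. Named members are the paralogs and their parents, the 5 highest and 3 lowest per length and protocol, the 3 largest ratios per pair and direction, the 3 highest and 3 lowest in variation, those without reads and the listed genes, of which some are not reported here. The 40% limit of exon overlap, RPS20, RPL34, RPL12 and the correlations' end members were chosen after their values were seen. Steps were tested on simulated data. Scripts ran under Python 3.11.15 (pandas 2.3.3, numpy 2.4.6, biopython 1.88, scipy 1.17.1, matplotlib 3.10.9), with TMM factors from edgeR 4.0.16 in R 4.3.3. Alternatives covered the cells kept, denominators, depth, pooling, pseudocount, scaling, filters, fold and length.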

Additional observations from a re-analysis of the deposited data

Results flagged for a closer look

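Member reads were also present in the 7 cells that failed the quality thresholds and entered only alternative runs. G&T cells C2 and F1 had 30215 and 51857 member reads, 4.28% and 8.89% of their reads on genes. Takara cells C2 and F1 had 164 and 25, at 15325 and 7990 reads on genes and over 90% ERCC reads. NEB cells B2, F1 and F2 had 11775, 49 and 13841 member reads, and NEB F1 had 1421 reads on genes in all. No well without a cell was labelled, and the values are above the limit of 3 reads that a count of 0 allows.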

How the results depend on the processing

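No paired analysis was possible because the wells of different protocols hold different cells and their numbers only name them. In all, 1031 alternative values were computed. Of those that answer a comparison 401 stayed within the spread or 1.5 times the count, and of those for single genes 577 did. Leaving out each cell in turn moved none beyond that. The members' median log2 ratio stayed above 0 in each pair under the alternatives run. With all deposited cells, members detected per cell averaged 74.2 in Takara and 76.6 in NEB, the large over small subunit ratio was 1.69 in Takara, and the counts of members whose cells did not overlap fell: 12 with G&T above Takara and 0 the other way, 19 with G&T above NEB, 1 with Takara above NEB and 1 the other way. The shares of all genes are not given for these counts, and some added cells had very few reads on genes. Their fall can therefore not be read as particular to the members. With the same cells, 4 members were 2-fold higher in NEB than Takara, beside 25.7% of all genes. At 5 reads for detection the averages were 81.1, 81.4 and 79.6. Without RPL7 and RPL36AL, a choice made after seeing the data, the subunit ratio was 1.45 in Takara and 1.49 in NEB. With CPM without mitochondrial genes RPS3 no longer separated, leaving 0 members. At a limit of 1.5-fold, 3 of 80 members were higher in Takara than G&T (33.7% of all genes), 4 in NEB than G&T (30.9%), 51 in Takara than NEB (46.5%) and 12 in NEB than Takara (33.0%). At 4-fold the counts were 12 for G&T over Takara (4.33% of all genes), 0 for Takara over G&T (2.76%), 0 for NEB over G&T (8.70%), 11 for Takara over NEB (27.9%) and 1 for NEB over Takara (11.2%), so for Takara over NEB the members' share was above that of all genes at 1.5-fold and below it at 4-fold. The correlation of the ratio with length depended on the length: with the union of exons it was 0.041 (G&T over Takara), -0.073 (G&T over NEB) and -0.093 (Takara over NEB), and with coding length, tried after seeing the data, -0.43, -0.30 and -0.095. The level per length correlated at 0.67 between G&T and NEB and 0.68 between Takara and NEB with coding length, and at 0.77 between Takara and NEB with the union. RPL39L over RPL39 turned to 0.78 in Takara and 0.57 in NEB with the union. The SD of log2(CPM + 1) put the members at 0.374 of the median of all genes in NEB. Depth limits statements on members with few reads, such as RPL3L, RPL36A and RPL17. The causes were not tested.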
